A study of Homo sapiens with 6 samples.

Results

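The clustered histone genes are the protein-coding genes whose names begin with HIST1H, HIST2H, HIST3H or HIST4H. By that rule 71 of the 58302 genes in the expression table were members: 55 in HIST1 on chromosome 6, 12 in HIST2 and 3 in HIST3 on chromosome 1, and 1 in HIST4 on chromosome 12. By product, 6 encode linker histone H1, 17 H2A, 18 H2B, 15 H3 and 15 H4. All libraries were RNA-seq of Hs766T, an established cell line that began as a human lymph node metastasis of pancreatic ductal adenocarcinoma (Hs766T is the cell line label, while the sample titles spell it HS7666T). In the DDX18 group, labelled ex-DDX18, the cells overexpressed DDX18, a DEAD-box RNA helicase that acts in the nucleolus in the assembly of ribosomes. The plvx group was the control, labelled WT, and no drug treatment, time point or further allele is given for either group. Each group had 3 libraries from total RNA, described as repeats of the sequencing. Separate cultures are not mentioned, and p-values therefore reflect the spread of these 6 libraries alone, part or all of which may be technical. Nor do the labels say whether the overexpressing cells are a clone or a pool.

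Clustered histone genes supply the bulk of the histone protein that packs newly copied DNA, and most of them are transcribed mainly in S phase. Their mRNAs usually have no introns and no poly(A) tail, and end instead just after a short stem-loop that the stem-loop binding protein SLBP holds. The U7 small nuclear ribonucleoprotein helps to form that end by cleavage. Some of these genes also make polyadenylated transcripts that run past the stem-loop, chiefly in cells that have left the cell cycle or are differentiating. In bulk RNA, more cells in S phase and more histone mRNA per cell cannot be told apart.

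The sequence that defines this gene family at the RNA level is the stem-loop at the 3′ end, shown for the members that the results below turn on. The motif read GG, any 2 bases, CTTTT, any base, AG, any 2 bases and CC, and was searched on the transcript strand of GENCODE 29 transcripts and written with T in place of U. It occurred in 31 of the 71 members (43.7%), against 80 of 58676 genes in all (0.136%). The stem-loop is in capitals, with 5 bases on either side.
HIST2H2AA3 and HIST2H2AA4: caaaaGGCTCTTTTCAGAGCCaccca
HIST2H2BE: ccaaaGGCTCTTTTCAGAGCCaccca
HIST3H2A: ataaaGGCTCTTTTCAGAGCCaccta
HIST1H2BD: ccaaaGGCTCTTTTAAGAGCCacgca
HIST2H4A and HIST2H4B: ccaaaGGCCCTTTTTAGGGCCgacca
The form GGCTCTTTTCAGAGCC was the most frequent, in 17 H2A, H2B and H3 genes, and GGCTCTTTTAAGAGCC was found in 5 H2B and H3 genes. The H4 genes with a match carried another stem, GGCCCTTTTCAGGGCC in 5 and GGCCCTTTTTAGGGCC in 3. HIST1H2AG alone had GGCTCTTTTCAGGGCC. No match was found in the other 40 members, of which 33 are annotated as coding sequence only. For those genes the annotated transcript stops before the place where a stem-loop would lie.

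Histone promoters are known for a few short elements: a TATA box, CCAAT boxes, an octamer in H2B genes and an AAACACA box in H1 genes. Promoters are printed for the most counted H1, H2B and H4 genes and for HIST3H2A. HIST3H2A does not stand for the H2A genes here. It holds neither ATTTGCAT nor TATAAA, which were in 11 and 9 of 14 matched H2A promoters. Each is the 250 bases before the start in the RefSeq table (GRCh38.p14), with TATAAA in capitals on the strand shown and CCAAT, ATTTGCAT and AAACACA in capitals on either strand, so that CCAAT also appears as ATTGG and AAACACA as TGTGTTT.
HIST1H1C, chr6:26056471-26056720, minus strand: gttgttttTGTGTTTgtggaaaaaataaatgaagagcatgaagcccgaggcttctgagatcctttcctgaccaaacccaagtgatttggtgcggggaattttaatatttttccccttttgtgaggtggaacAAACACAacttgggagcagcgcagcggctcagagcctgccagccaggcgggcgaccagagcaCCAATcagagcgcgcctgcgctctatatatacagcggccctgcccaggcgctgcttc
HIST1H2BK, chr6:27146859-27147108, minus strand: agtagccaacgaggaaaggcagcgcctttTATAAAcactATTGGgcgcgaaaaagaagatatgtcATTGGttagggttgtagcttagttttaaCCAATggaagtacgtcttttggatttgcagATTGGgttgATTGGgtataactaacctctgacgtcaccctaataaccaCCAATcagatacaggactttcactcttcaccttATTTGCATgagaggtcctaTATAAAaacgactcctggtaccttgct
HIST3H2A, chr1:228457874-228458123, minus strand: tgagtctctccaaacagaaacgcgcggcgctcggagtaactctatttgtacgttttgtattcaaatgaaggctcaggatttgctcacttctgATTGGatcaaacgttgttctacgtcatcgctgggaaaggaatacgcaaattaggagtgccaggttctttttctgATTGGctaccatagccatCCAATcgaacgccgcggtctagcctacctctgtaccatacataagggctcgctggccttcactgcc
HIST2H4B, chr1:149861160-149861409, minus strand: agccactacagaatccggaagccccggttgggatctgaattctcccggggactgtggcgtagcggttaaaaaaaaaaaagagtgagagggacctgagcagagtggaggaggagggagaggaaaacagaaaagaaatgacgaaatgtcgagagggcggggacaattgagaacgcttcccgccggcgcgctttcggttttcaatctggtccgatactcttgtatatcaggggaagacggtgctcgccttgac
RefSeq promoters were matched for 61 of the 71 members. The H1 box AAACACA lay in all 6 H1 promoters and in no promoter of another histone type, against 4.95% of 27305 promoters in all. The octamer ATTTGCAT was in 14 of 18 H2B and 11 of 14 H2A promoters, 1 of 10 H3 promoters and 0 of the H1 and H4 promoters, against 1.66% of all promoters. The H3 promoter, matched to HIST1H3D, is the same stretch as that of the H2A gene HIST1H2AD (chr6:26199294-26199543). Where an H2A and an H2B gene lie head to head, as HIST1H2AC and HIST1H2BC do, their promoters overlap and the same octamer counts for both types. CCAAT stood in every matched H1, H2A, H2B and H3 promoter but in 3 of 13 H4 promoters, against 33.0% of all. TATAAA was found in 57.4% of the matched members and in 7.17% of all promoters. The HIST2H4B promoter held none of the 4 motifs. No match overlapped another in these promoters, and a match describes the sequence and is not a binding site.

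Total counts were 15911875 to 16207995 per library, and the members took a small part of them. DDX18 itself checked the labels, at 187.2, 197.4 and 176.9 CPM in the DDX18 libraries against 89.4, 82.4 and 98.3 CPM in plvx, with means of 187.1 ± 10.2 CPM in DDX18 libraries and 90.0 ± 7.98 CPM in plvx (SD, n = 3 each; log2 fold change 1.06, SE 0.086, edgeR adjusted p = 0.00982). CPM is the count scaled to the library size after TMM normalization. Of 11 ductal markers, KRT8 averaged 2057.0 CPM in DDX18 libraries and 1993.2 CPM in plvx, and KRT7 606.6 CPM in DDX18 libraries and 602.5 CPM in plvx. KRT18 averaged 855.8 CPM in DDX18 libraries and 1045.9 CPM in plvx, and was lower in every DDX18 library (edgeR adjusted p = 0.860). MUC1 averaged 51.1 CPM in DDX18 libraries and 57.5 CPM in plvx, and SOX9 10.5 CPM in DDX18 libraries and 11.6 CPM in plvx. The defining epithelial markers EPCAM and CDH1 were low (5.39 and 2.23 CPM in DDX18 libraries, 7.05 and 2.06 CPM in plvx), CFTR was below 1 CPM, KRT19 had counts in 1 library only, and CA2 was at 0. In all, 6 of 8 acinar and 5 of 6 endocrine markers were at 0 throughout. Fibroblast markers summed to 169.0 to 174.4 CPM in DDX18 libraries and 163.6 to 175.1 CPM in plvx, with COL1A2 at 0.

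Clustered histone genes together were counted more in every DDX18 library than in any plvx library. Their summed level was 389.5, 346.2 and 351.1 CPM in the DDX18 libraries, against 323.4, 301.7 and 282.5 CPM in plvx. The groups did not overlap, and DDX18 replicate 1 stood highest. The means were 362.3 ± 23.7 CPM with DDX18 and 302.5 ± 20.5 CPM in plvx (SD, n = 3 each), a ratio of 1.20. No test was run on this sum, since members were chosen with results of these data known. No single member passed the threshold. A filter on low counts kept 34 of the 71 members for the test, and 0 of them had an edgeR adjusted p under 0.05, against 8 of 15144 genes (0.0528% called). The smallest adjusted p among members was 0.800, and DESeq2 and limma-voom called none either. At an unadjusted p under 0.05 there were 6 members, all higher with DDX18, where 5.69% of all genes tested reached that level, 2.5% of them as higher and 3.19% as lower. In 11 members the 3 DDX18 libraries all lay above the 3 plvx libraries and in 0 they all lay below, where 11.5% of all genes tested did not overlap, 5.83% with DDX18 above and 5.71% with DDX18 below. The log2 fold change was positive in 26 tested members and negative in 8, against 49.8% positive among all genes tested; HIST1H2AM (-0.0061) and HIST1H3G (-0.0016) turned positive, at 0.011 and 0.012, with no scaling beyond totals. Its median was 0.25, against -0.00078 over all genes, and it was 0.14 without DDX18 replicate 1. For 4 of the 34 tested members some libraries lay under the filter's 0.625 CPM. None passed it through the libraries of 1 group only.

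**Figure D1:**
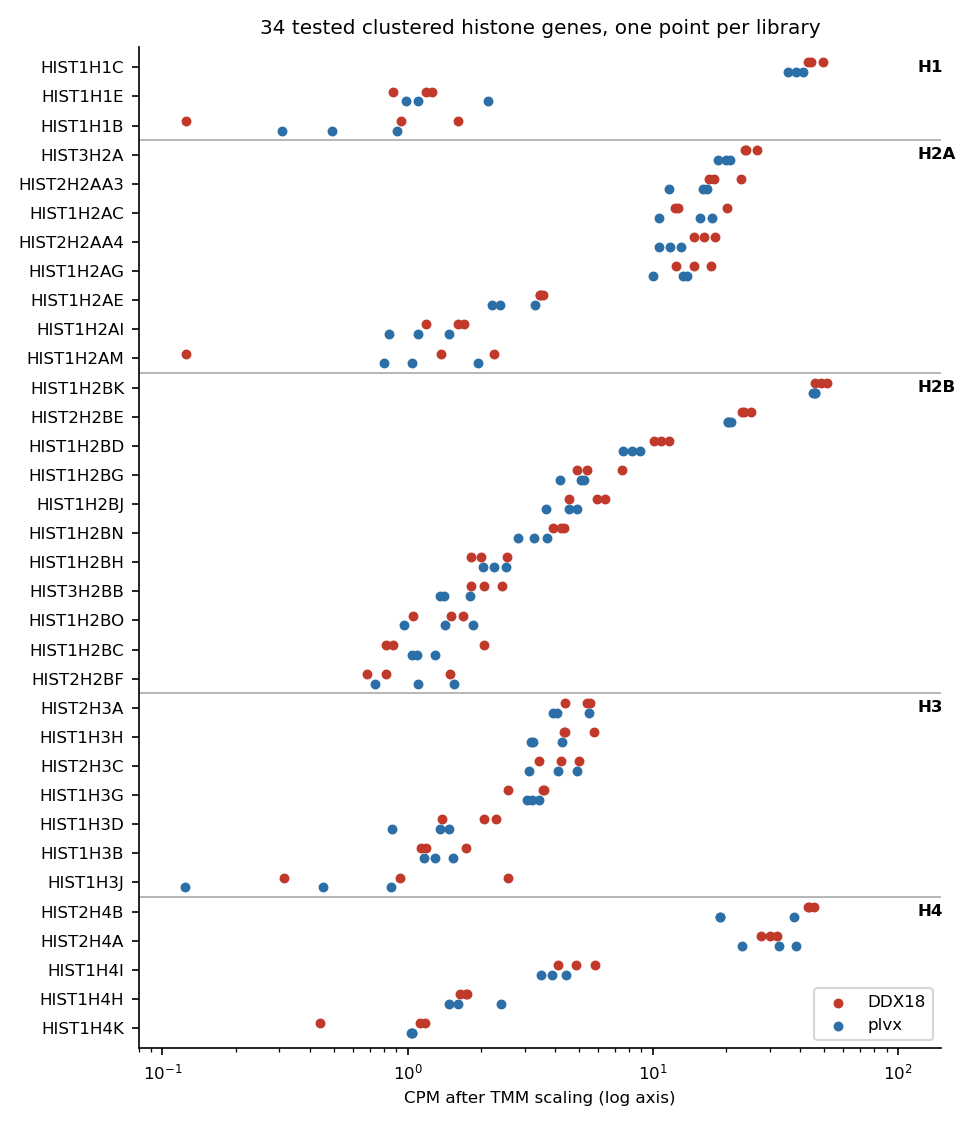
CPM after TMM scaling (log axis) of the 34 tested clustered histone genes, 1 point per library, with DDX18 libraries in red above plvx libraries in blue and genes ordered by level within each histone type. HIST1H2BK, HIST1H1C, HIST2H4B and HIST2H4A lie highest, while the H3 genes stay below 6 CPM; in HIST2H4B the 3 DDX18 points sit together and the plvx points are spread from 18.8 to 37.8 CPM.

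H1 is the linker histone that binds where DNA enters and leaves the nucleosome. HIST1H1C (chromosome 6, 26055787 to 26056428, minus strand, annotated as coding sequence only) carried nearly all H1 counts. It had 43.2, 44.0 and 49.5 CPM in the DDX18 libraries against 41.1, 38.4 and 35.8 CPM in plvx. All 3 DDX18 values were above all 3 plvx values. The log2 fold change was 0.25 (SE 0.095, 95% interval 0.02 to 0.47), with an unadjusted p of 0.0336 and an edgeR adjusted p of 0.853. HIST1H1E had 0.868, 1.19 and 1.26 CPM with DDX18 and 2.13, 1.11 and 0.985 CPM in plvx, so the groups overlapped and the negative estimate of -0.34 came with an SE of 0.367. HIST1H1B was the remaining H1 gene tested, at 1.61, 0.125 and 0.943 CPM against 0.902, 0.491 and 0.308 CPM in plvx, again overlapping. The H1 sum was 45.5 to 51.7 CPM with DDX18 and 37.2 to 44.6 CPM in plvx.

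H2A forms a dimer with H2B in the nucleosome core. Of 17 H2A genes, 8 were tested, 7 with a positive estimate, and the median log2 fold change was 0.35. HIST3H2A (chromosome 1, 228456979 to 228457873, minus strand) was at 26.7, 24.1 and 23.8 CPM in DDX18 libraries, against 19.98, 18.5 and 20.8 CPM in plvx. The lowest DDX18 value exceeded the highest plvx value. Its log2 fold change was 0.33 (SE 0.099, 95% interval 0.10 to 0.56), with an unadjusted p of 0.0105 and an edgeR adjusted p of 0.800. HIST2H2AA4 was at 18.0, 14.7 and 16.1 CPM with DDX18, against 13.0, 11.7 and 10.6 CPM in plvx. HIST2H2AA3 was at 23.0, 17.0 and 17.7 CPM with DDX18, against 16.1, 16.6 and 11.7 CPM in plvx. Neither gene's groups overlapped, but the copies cannot be separated: all 50-base windows of HIST2H2AA3 and 97.1% of those of HIST2H2AA4 occur in the other copy. Their counts summed to 41.0, 31.8 and 33.9 CPM with DDX18 and 29.1, 28.4 and 22.3 CPM in plvx. Merged before the fit, an alternative added after the data were seen, they had a log2 fold change of 0.42 (SE 0.142, 95% interval 0.09 to 0.75, unadjusted p = 0.0193, edgeR adjusted p = 0.843).

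Other H2A genes were lower or less even. HIST1H2AC had 20.1, 12.4 and 12.7 CPM with DDX18 and 15.6, 10.6 and 17.5 CPM in plvx, which overlapped. HIST1H2AG had 17.2, 12.4 and 14.8 CPM with DDX18 and 10.1, 13.8 and 13.2 CPM in plvx, also overlapping. HIST1H2AE had nearly equal DDX18 values, at 3.47, 3.56 and 3.46 CPM, and lay above its 3 plvx values of 2.38, 3.32 and 2.22 CPM. The H2A sum was 113.7, 87.0 and 94.8 CPM with DDX18 and 82.4, 78.4 and 79.9 CPM in plvx. DDX18 replicate 1 held the highest value in that sum, in HIST2H2AA3, in HIST1H2AC and in HIST1H2AG.

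H2B genes are the largest group, with 11 of 18 tested and 9 positive estimates (median log2 fold change 0.23). HIST1H2BK (chromosome 6, 27146418 to 27146798, minus strand) was the most counted clustered histone gene, at 51.4, 48.4 and 45.8 CPM with DDX18 and 45.1, 46.1 and 45.8 CPM in plvx. The groups overlapped, and the 95% interval of the log2 fold change ran between -0.10 and 0.27 around 0.09 (unadjusted p = 0.301). HIST2H2BE (chromosome 1, 149884459 to 149886652, minus strand) had 25.2, 23.1 and 23.7 CPM in DDX18 libraries against 20.3, 20.3 and 20.9 CPM in plvx. These groups were tight and apart, with a log2 fold change of 0.23 (SE 0.089), an unadjusted p of 0.0348 and an edgeR adjusted p of 0.853. HIST1H2BD had 10.9, 11.6 and 10.1 CPM in DDX18 libraries against 8.25, 8.91 and 7.57 CPM in plvx. Its log2 fold change was 0.40 (SE 0.128, 95% interval 0.10 to 0.69), with an unadjusted p of 0.0154 and an edgeR adjusted p of 0.836. HIST1H2BN, at 3.91 to 4.34 CPM with DDX18 and 2.83 to 3.69 CPM in plvx, and HIST3H2BB, at 2.42, 2.06 and 1.82 CPM with DDX18 and 1.80, 1.41 and 1.35 CPM in plvx, were the other H2B genes without overlap between groups. HIST1H2BN is among the 15 members whose exons overlap another gene. Both H2B genes with a negative estimate had overlapping groups. HIST2H2BF had 1.49, 0.686 and 0.817 CPM with DDX18 and 1.55, 1.11 and 0.739 CPM in plvx (log2 fold change -0.17, SE 0.411). HIST1H2BH had 2.54, 2.00 and 1.82 CPM with DDX18 and 2.26, 2.52 and 2.03 CPM in plvx (log2 fold change -0.10, SE 0.221). The H2B sum was 103.1 to 116.6 CPM with DDX18 and 94.1 to 97.5 CPM in plvx.

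H3, whose tail carries many of the marks that regulate chromatin, was the core histone with the lowest summed CPM. HIST1H3H had 5.77, 4.37 and 4.40 CPM with DDX18, against 4.25, 3.19 and 3.26 CPM in plvx. The groups were apart, with a log2 fold change of 0.44 (SE 0.20, unadjusted p = 0.0605, edgeR adjusted p = 0.860). It was the only H3 gene of the 7 tested with no overlap. HIST2H3A was the H3 gene with the highest mean, at 5.39, 5.55 and 4.40 CPM with DDX18 and 5.48, 3.93 and 4.06 CPM in plvx, with overlap. It and HIST2H3C share all of their 50-base windows, and summed to 9.61, 8.98 and 9.43 CPM with DDX18 and 10.4, 7.06 and 8.19 CPM in plvx. The plvx values lay on both sides of the DDX18 values. HIST1H3G, at 2.58 to 3.60 CPM with DDX18 and 3.07 to 3.45 CPM in plvx, and HIST1H3B, at 1.13 to 1.74 CPM with DDX18 and 1.17 to 1.54 CPM in plvx, had estimates of 0.00 and 0.02, with SEs of 0.196 and 0.279. HIST1H3D overlaps another annotated gene, AL031777.3, by 411 bases on the same strand, so its estimate of 0.63 (SE 0.311) may include reads of both.

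**Figure D2:**
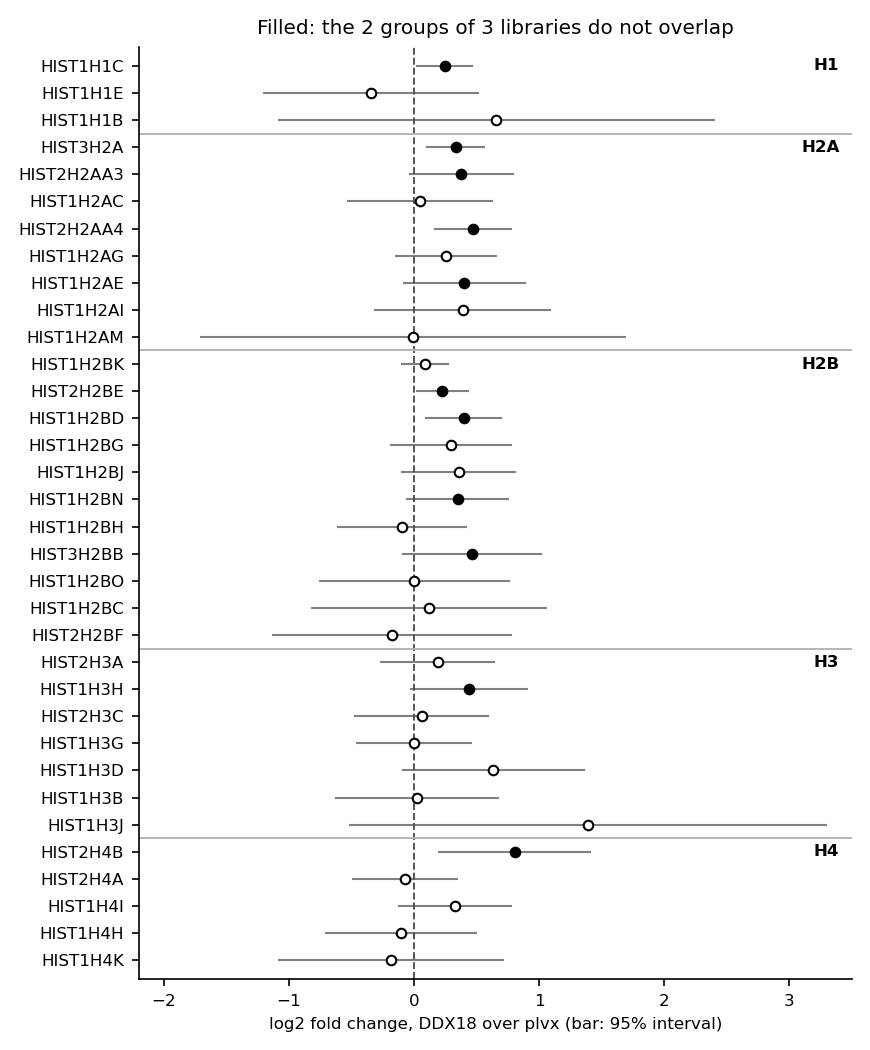
Log2 fold change of DDX18 over plvx for each tested member with its 95% interval, ordered as by level within each histone type; filled points are the 11 genes whose DDX18 and plvx libraries do not overlap. All filled points lie right of 0 (equal levels), and the widest intervals belong to HIST1H3J, HIST1H1B and HIST1H2AM, which have few counts or exons that overlap another gene.

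H4, which pairs with H3 at the core of the nucleosome, had most of its counts on 2 near-identical genes. HIST2H4B (chromosome 1, 149854045 to 149861210, minus strand) had 45.5, 43.4 and 42.9 CPM with DDX18, against 37.8, 18.9 and 18.8 CPM in plvx. The groups did not overlap, but plvx replicate 1 lay nearer to the DDX18 libraries than to the other plvx libraries. The log2 fold change was 0.81 (SE 0.259, 95% interval 0.20 to 1.41), with an unadjusted p of 0.0153 and an edgeR adjusted p of 0.834. Without plvx replicate 1 it was 1.22 with an edgeR adjusted p of 0.0199, the only member that passed the threshold under any alternative run. The near-identical HIST2H4A (chromosome 1, 149832659 to 149839767, plus strand) had 32.3, 30.1 and 27.6 CPM with DDX18, against 32.9, 38.5 and 23.2 CPM in plvx. Here the groups overlapped, and plvx replicate 2 was the highest of the 6 libraries.

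These genes share 97.2% to 97.5% of their 50-base windows, and the division of counts between them differed from library to library. HIST2H4B had 734, 696 and 683 counts with DDX18 and 586, 307 and 306 in plvx. HIST2H4A had 521, 482 and 440 counts with DDX18 and 510, 627 and 376 in plvx. Summed, they had 77.8, 73.5 and 70.6 CPM with DDX18 and 70.6, 57.4 and 42.0 CPM in plvx, and the lowest DDX18 value no longer exceeded the highest plvx value. Merged before the fit they had a log2 fold change of 0.38 (SE 0.172, 95% interval -0.01 to 0.78, unadjusted p = 0.0568, edgeR adjusted p = 0.860). How the authors assigned reads that match both is not given in the sources used here. Both genes also overlap an H3 gene on the opposite strand by 173 bases, HIST2H3A for HIST2H4B and HIST2H3C for HIST2H4A.

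The remaining H4 genes had few counts. HIST1H4I lay at 4.09 to 5.84 CPM with DDX18 and 3.51 to 4.42 CPM in plvx, which overlapped. HIST1H4H had 1.74, 1.75 and 1.63 CPM with DDX18 and 1.61, 1.47 and 2.40 CPM in plvx. HIST1H4K, whose windows all recur in HIST1H4J, had 1.18, 1.12 and 0.440 CPM with DDX18 and 1.03, 1.04 and 1.05 CPM in plvx. The 5 tested H4 genes had a median log2 fold change of -0.07, while the H4 sum was 87.0, 84.0 and 80.8 CPM with DDX18 and 79.6, 66.6 and 50.6 CPM in plvx. That median is the estimate of HIST2H4A itself, whose counts cannot be separated from those of HIST2H4B, so no direction is read from it. HIST2H4A and HIST2H4B held most of the sum, and merged they had a log2 fold change of 0.38.

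Neighbouring HIST1 genes also overlapped, so their counts may not be separable. HIST1H2AM and HIST1H3J overlap by 346 bases on the same strand. HIST1H2AM had 22, 2 and 36 counts with DDX18 and 30, 17 and 13 in plvx. HIST1H3J had 15, 41 and 5 counts with DDX18 and 7, 14 and 2 in plvx. In DDX18 replicate 2 the second gene was high and the first nearly empty, and in replicate 3 the reverse held. Their sums were 37, 43 and 41 counts with DDX18 and 37, 31 and 15 in plvx. The log2 fold change of 1.39 for HIST1H3J, the highest of any tested member, had an SE of 0.819 and overlapping groups.

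**Figure D3:**
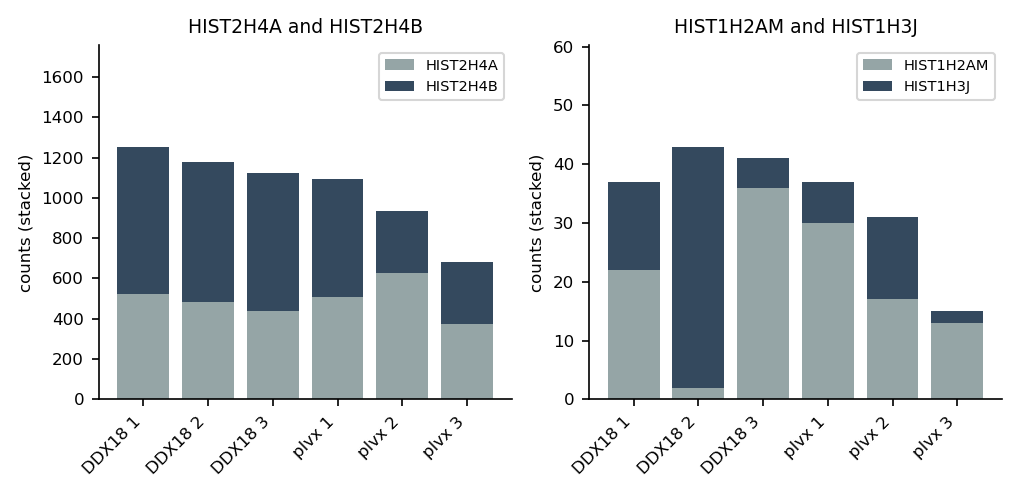
Stacked counts per library for 2 sets of genes that share sequence, HIST2H4A with HIST2H4B (left) and HIST1H2AM with HIST1H3J (right), DDX18 libraries left of plvx libraries. The division between the genes differs from library to library; the HIST2H4A and HIST2H4B stack is lowest in plvx replicate 3, and DDX18 replicate 2 has 2 counts for HIST1H2AM beside 41 for HIST1H3J.

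By cluster, the summed levels of HIST1, HIST2 and HIST3 were each higher in all 3 DDX18 libraries than in all 3 plvx libraries. HIST1 summed to 203.3, 180.6 and 185.4 CPM with DDX18 and 167.4, 165.9 and 164.8 CPM in plvx, a ratio of 1.14. The plvx libraries agreed to within 3 CPM, while DDX18 replicate 1 stood out as high. HIST2 summed to 156.2, 138.7 and 138.9 CPM with DDX18 and 133.5, 115.0 and 94.7 CPM in plvx, a ratio of 1.26. Without HIST2H4A and HIST2H4B the HIST2 sum averaged 70.6 ± 6.88 CPM with DDX18 and 57.7 ± 5.06 CPM in plvx, a ratio of 1.22. HIST3 summed to 29.5, 26.5 and 26.0 CPM with DDX18 and 22.1, 20.3 and 22.4 CPM in plvx, also a ratio of 1.26. HIST4H4, the only HIST4 gene, was not tested, at 10, 7 and 14 counts with DDX18 and 7, 9 and 9 in plvx, and its groups overlapped. Every DDX18 library lay above every plvx library in 5 of 24 tested HIST1 genes, 4 of 8 in HIST2 and 2 of 2 in HIST3, against 5.83% of all genes tested. The 4 in HIST2 include HIST2H2AA3, HIST2H2AA4 and HIST2H4B, whose counts cannot be separated from their copies. The mean share of histone counts was 52.4 ± 0.358% with DDX18 and 55.0 ± 3.29% in plvx for HIST1, 39.9 ± 0.299% with DDX18 and 37.6 ± 3.89% in plvx for HIST2, and 7.53 ± 0.128% with DDX18 and 7.16 ± 0.672% in plvx for HIST3. These differences were smaller than the SD among plvx libraries, and no difference between clusters was tested.

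By type, the ratio of the group means was 1.17 for H1, 1.23 for H2A, 1.13 for H2B, 1.19 for H3 and 1.28 for H4. The H3 sum was the exception to the separation, with 26.2, 24.5 and 20.8 CPM with DDX18 and 22.6, 18.5 and 18.8 CPM in plvx. Without HIST2H4A and HIST2H4B the H4 sum averaged 9.97 ± 0.695 CPM with DDX18 and 8.95 ± 0.326 CPM in plvx, a ratio of 1.11, and its lowest DDX18 value was below its highest plvx value. The 37 members that were not tested summed to 8.74, 7.18 and 7.16 CPM with DDX18 and 8.63, 7.80 and 6.16 CPM in plvx, which overlapped. Of these 37, 9 had no count in any library, which allows up to 0.189 CPM (3 counts, counting error only) in a library. The other 28 had counts, and HIST3H3 had 5 in each of the 6 libraries. The 19 pseudogenes with the same name pattern summed to 9.86, 10.05 and 7.92 CPM with DDX18 and 7.67, 11.8 and 8.38 CPM in plvx.

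**Figure D4:**
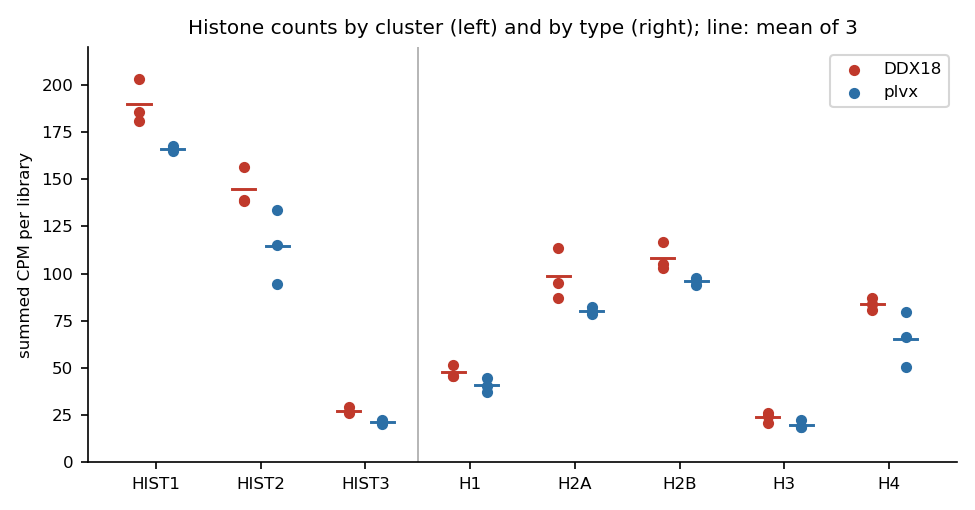
Summed CPM per library of HIST1, HIST2 and HIST3 (left) and of the 5 histone types (right), DDX18 libraries in red left of plvx libraries in blue, each line the mean of 3 libraries. The groups separate in every column but H3, and the plvx points of HIST2 (94.7 to 133.5 CPM) and H4 (50.6 to 79.6 CPM) are spread more widely than those of HIST1 (164.8 to 167.4 CPM).

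Per length, levels differed widely between the genes. Levels between genes are given as CPM per kilobase of merged exons in GENCODE 29. HIST1H2BK was the highest member at 127.4 ± 7.35 with DDX18 and 119.9 ± 1.35 in plvx (SD, n = 3 each). HIST1H1C followed at 71.0 ± 5.27 with DDX18 and 59.9 ± 4.15 in plvx. HIST2H2AA3 was at 35.1 ± 5.95 with DDX18 and 27.0 ± 4.94 in plvx, and HIST2H2AA4 at 28.9 ± 2.95 with DDX18 and 20.9 ± 2.15 in plvx. HIST3H2A, at 27.8 ± 1.80 with DDX18 and 22.1 ± 1.25 in plvx, was close to HIST2H2AA4. HIST1H2BK and HIST1H1C are both annotated as coding sequence only, so reads past the coding end would not be counted and the length is short.

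Of the members, 33 are annotated as coding sequence only, 8 end within 60 bases after a stem-loop, 23 run further past it, and 7 are of other kinds with no match. In that order the classes had medians of 0.640, 4.32, 1.43 and 0.81 CPM per kilobase over all 6 libraries. For the 8 and the 23, only transcripts with a stem-loop match set the class. HIST1H2BD, with 2 transcripts between 26158146 and 26171349, is among the 8 by its transcript HIST1H2BD-202. It is also on the list of polyadenylated histones below. The coding-sequence-only class ranged from 0 to 123.6. The class that ends within 60 bases counts HIST2H2AA3 and HIST2H2AA4 separately, though these copies cannot be told apart. The genes that run past their stem-loop held 53.56% of all histone counts. Among them are HIST2H4A and HIST2H4B, with 2956 and 3312 counts over all 6 libraries. Counts are totals per gene, so this share does not measure RNA that runs past the stem-loop. Histones with known polyadenylated transcripts were a list of 8 (HIST1H1C, HIST1H2AC, HIST1H2BC, HIST1H2BD, HIST1H2BJ, HIST1H2BK, HIST2H2BE and HIST3H2A), and all passed the filter on low counts. All 8 had a positive log2 fold change, with a median of 0.24, against 49.8% positive among all genes tested. In 4 every DDX18 library lay above every plvx library, against 5.83% of all genes tested. The sum of the list was 185.9, 169.1 and 172.3 CPM with DDX18 and 155.1, 148.4 and 154.5 CPM in plvx, a ratio of 1.15. The other 63 genes, of which 26 were tested, summed to 203.6, 177.1 and 178.8 CPM with DDX18 and 168.3, 153.2 and 128.0 CPM in plvx, a ratio of 1.24. The list thus held 48.5 ± 0.721% of histone counts with DDX18 and 50.6 ± 3.58% in plvx.

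The kit is called an mRNA kit in the labels, and how RNA without a poly(A) tail was captured is not given in the sources used here. A list of 23 RNAs that lack a poly(A) tail was therefore measured beside the histones. It summed to 13.7, 22.7 and 23.4 CPM with DDX18 and 21.4, 12.2 and 6.71 CPM in plvx, and 6 of the 23 had no count. Only 3 of the 23 were tested, and all 3 had a positive estimate, against 49.8% of all genes tested. Their log2 fold changes ran from 0.39 to 0.71 with a median of 0.51, and the groups overlapped in all 3. RN7SL2, the signal recognition particle RNA with the smallest p in that list, had 5.52, 13.6 and 15.0 CPM with DDX18 and 11.5, 5.47 and 3.82 CPM in plvx (edgeR adjusted p = 0.892). DDX18 replicate 1 was the lowest DDX18 library in this sum and the highest in the histone sum, while plvx replicate 3 was the lowest plvx library in both. The part of RNA capture in the histone levels was not tested.

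Many H2A and H2B genes lie head to head and share the DNA between their starts. There were 11 such H2A and H2B arrangements with starts 219 to 331 bases apart, and in 6 of the 10 with counts the higher partner exceeded the lower 3.51-fold or more. HIST1H2BK was at 123.6 CPM per kilobase over all 6 libraries, and HIST1H2AH, 331 bases away on the other strand, at 0.755. HIST3H2A was at 24.9 and its partner HIST3H2BB at 0.766 CPM per kilobase, 234 bases apart. HIST2H2BE was at 10.1 and HIST2H2AC at 1.05. Of the 50-base windows of HIST2H2AC, 30.5% also occur in HIST2H2AA3, so its count may depend on how reads were assigned. HIST1H2AC was at 8.87 and HIST1H2BC at 1.43. In other arrangements the partners were close per kilobase: HIST1H2AG was at 6.04 and HIST1H2BJ at 5.26 CPM per kilobase. Their counts over all 6 libraries were 1308 and 481, on merged exons of 2250 and 950 bases. The annotated lengths thus enter each of these comparisons, as in HIST3H2A with 895 bases and HIST3H2BB with 2364. HIST1H2AA and HIST1H2BA, testis histones, both had no count. HIST1H2AH and HIST2H2AC are annotated as coding sequence only, as is HIST1H2BK. The higher partners HIST1H2BK, HIST3H2A, HIST2H2BE and HIST1H2AC are all on the list of polyadenylated histones, as are HIST1H2BC and HIST1H2BJ. The part of RNA capture in these gaps was not tested. Another 2 of the 6 unequal arrangements hold HIST1H2AJ and HIST1H2AI, which share 83.7% and 62.3% of their 50-base windows with each other. The promoter printed above for HIST1H2BK lies in such a shared stretch, and that of HIST3H2A spans one and runs into the first bases of HIST3H2BB.

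**Figure D5:**
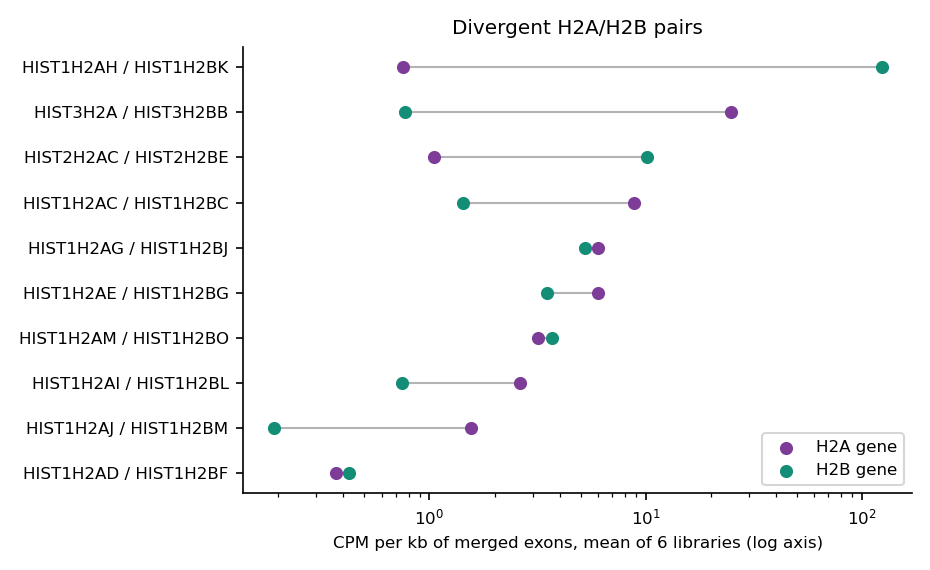
CPM per kilobase of merged exons (log axis, mean of all 6 libraries) of the H2A gene (purple) and the H2B gene (green) in each of the 10 head-to-head arrangements with counts, ordered by the higher partner. The partners of HIST1H2BK and HIST3H2A lie far to the left of them, at 0.755 and 0.766, while HIST1H2AG and HIST1H2BJ lie almost together.

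No gene of the lists for making and breaking down histone mRNA passed the threshold. Of 33 factors of histone gene transcription and 3′ end formation, all tested, 0 passed the threshold, 15 estimates were positive and 18 negative, and the median log2 fold change was -0.03. CASP8AP2, also called FLASH, a component of the histone locus body needed for 3′ end processing, had the smallest p, at 4.53, 3.43 and 3.27 CPM with DDX18 and 6.44, 7.80 and 7.51 CPM in plvx. All DDX18 libraries lay below all plvx libraries, with a log2 fold change of -0.95 (SE 0.183, edgeR adjusted p = 0.485). CDK2, the kinase that with cyclin E activates the histone locus coactivator NPAT, was at 195.1, 167.8 and 152.9 CPM with DDX18 and 125.9, 122.0 and 151.1 CPM in plvx (log2 fold change 0.37, edgeR adjusted p = 0.824). NPAT itself averaged 8.84 ± 1.85 CPM with DDX18 and 10.3 ± 0.590 CPM in plvx. SLBP averaged 74.7 ± 5.38 CPM with DDX18 and 76.1 ± 10.6 CPM in plvx, and both genes overlapped between groups.

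Of 12 histone mRNA decay genes in the list, 10 were found under their names and tested, 9 with a negative estimate, and the median log2 fold change was -0.07. XRN1, the 5′ to 3′ exonuclease, had the smallest p, at 12.8, 14.7 and 12.1 CPM with DDX18 and 14.4, 19.2 and 20.6 CPM in plvx (log2 fold change -0.45, edgeR adjusted p = 0.841). Of 25 histone chaperones and import factors, 9 were positive and 16 negative, with a median of -0.02. ATRX, which with DAXX deposits the H3.3 variant, had the smallest p there, at 12.3, 10.5 and 10.8 CPM with DDX18 and 10.7, 22.0 and 21.1 CPM in plvx (edgeR adjusted p = 0.849). No chaperone or import factor passed the threshold.

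Histone variants encoded outside the clusters, most of which are made independently of DNA replication and polyadenylated, had estimates in the same direction as the clustered genes in 9 of the 11 tested. The median was 0.08, and the estimates ran from -0.75 to 0.20, so the largest in size was negative. The list summed to 2213.6, 2278.4 and 2376.8 CPM with DDX18 and 2290.3, 2166.05 and 2007.2 CPM in plvx, which overlapped. H1F0, a linker histone, was at 245.4, 242.7 and 254.2 CPM with DDX18 and 231.1, 215.9 and 198.2 CPM in plvx (log2 fold change 0.20, edgeR adjusted p = 0.841). CENPA, the centromeric H3, was at 38.6, 40.6 and 40.8 CPM with DDX18 and 35.4, 34.0 and 34.8 CPM in plvx (log2 fold change 0.20, edgeR adjusted p = 0.853). Neither overlapped, and neither passed the threshold.

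Genes of S phase, when clustered histone genes are usually transcribed, were measured for comparison. Of 32 tested, 10 estimates were positive and 22 negative, and the median log2 fold change was -0.03. RRM2, a subunit of ribonucleotide reductase, was at 140.5, 72.8 and 75.5 CPM with DDX18 and 150.6, 187.3 and 147.9 CPM in plvx (log2 fold change -0.75, edgeR adjusted p = 0.841). MCM7, of the replicative helicase, was at 438.6, 448.0 and 469.2 CPM with DDX18 and 493.3, 502.4 and 508.1 CPM in plvx (log2 fold change -0.15, edgeR adjusted p = 0.856). In both, every DDX18 library was below every plvx library. These were the only S phase genes without overlap, 2 of 32, where 5.71% of all genes tested had every DDX18 library below. The share of cells in S phase was not measured.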

How the data were processed

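RNA-seq of 3 DDX18 and 3 plvx libraries was used. The deposited table holds raw counts per gene and FPKM, per the file headers. How reads were aligned, counted and assigned to strands is not given in the sources used here, so reads of overlapping genes may not be separable. GRCm38 and mm10, which are mouse builds, stand in the submitters' processing notes, but the table has human Ensembl identifiers. All 71 members have the coordinates of GENCODE 29 on GRCh38. In 59 of 62 members with counts, the length behind the authors' FPKM equalled the sum of all transcript lengths (tolerance 0.2%), so FPKM was not used for levels. That sum can differ from the length of a single transcript only in the 13 members with more than 1 transcript. Of these, HIST1H2AC, HIST1H2BN and HIST1H4H did not match.

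The members and gene lists were chosen with earlier results of these data known. Counts were tested with edgeR 4.0.16 (filterByExpr, TMM, quasi-likelihood F-test) in R 4.3.3 on all 15144 genes kept, with Benjamini and Hochberg adjustment over them and 0.05 as the threshold. SEs were taken as the log2 fold change over the square root of F. Every adjusted p is from this test. The step was tested on simulated data. The common coefficient of variation between replicates was 15.9%. Within each group the libraries differed beyond sampling noise (chi-square per degree of freedom 12.9 to 20.6), so none was merged as a repeat deposit; this does not show that they are separate cultures. Replicate numbers did not pair the samples (correlations of deviations of -0.04, 0.02 and -0.09). Members given in every library are, per histone type, the 2 most counted, up to 6 higher and up to 6 lower ones with the smallest p, and those of clusters with 3 or fewer tested members. From other lists the gene with the smallest p is given. A marker of the ductal list is not reported here. Further genes were picked after their values were seen. Alternatives were DESeq2 1.42.0, limma-voom (limma 3.58.1), other scaling and filters, a replicate block, each library left out, and 2 added later. Sequences were searched with Python 3.11.15.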

Additional observations from a re-analysis of the deposited data

How the results depend on the processing

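No member was called under DESeq2, limma-voom, other scaling or other filters, and HIST2H4B alone was called without plvx replicate 1. Leaving out each library gave 0 to 1 members called, 13 to 19 of 37 to 39 members without overlap (against 19.6% to 25.3% of all genes tested under the same settings, since with fewer libraries fewer overlap by construction), a median log2 fold change of 0.14 to 0.33, and a log2 ratio of the summed CPM of 0.20 to 0.31. With the replicate number as a block, 0 members were called, 6 had an unadjusted p under 0.05 and the median was 0.25. At an unadjusted p under 0.05 DESeq2 gave 4 members and limma-voom 6. With no filter, 7 of 62 members had such a p, all higher (4.17% of all genes tested), and 15 did not overlap, 13 of them higher (8.74% of all genes tested). Without DDX18 replicate 1, 12 of the 15 members without overlap were higher. The share of all genes tested that was higher in that run is not given here, so this count is not read against a background. Merging the near-identical HIST2 copies, chosen after seeing the data, gave 5 and 9 of 31 with a median of 0.26. For the block, DESeq2, limma-voom and merged runs the share over all genes tested is not given here. Their counts of members are therefore not read against a background. The log2 ratio of the sum was 0.23 without HIST2H4A and HIST2H4B (also chosen after seeing the data), 0.25 with pseudogenes added and 0.32 without the polyadenylated list.

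With no scaling beyond totals, 2 members near 0 changed sign, HIST1H2AM (0.011) and HIST1H3G (0.012). Among the members chosen by the rule for named genes, sign changes, none of them called, came with a single library left out. HIST2H2BF ranged between -0.59 and 0.11 (0.03 without DDX18 replicate 2, 0.11 without plvx replicate 1), HIST1H1E between -0.55 and 0.077 (without plvx replicate 1), HIST1H2BH between -0.25 and 0.00056 and HIST1H4K between -0.42 and 0.14 (both without DDX18 replicate 3), HIST2H4A between -0.26 and 0.10 (without plvx replicate 2), and HIST1H4H between -0.24 and 0.14 (without plvx replicate 3). The cause was not tested. What depth alone limits in members with few counts was not tested.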
